A study of Mus musculus with 12 samples.

Results

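The Fas and TRAIL death receptor pathway was followed through 8 mouse genes that stand at its head, the ligands Fasl and Tnfsf10, the receptors Fas, Tnfrsf10b and Tnfrsf1a, the adaptor Fadd, the initiator protease Casp8 and its inhibitor Cflar. They were taken by name, as a pathway known from studies of how osteosarcoma cells persist in the lung, with earlier results of these data known. Through the accession of each probe, the 8 genes were matched to 11 of 39429 non-control probes, or 8 of 20144 genes that could be named. Their levels were compared in the osteosarcoma lines Dunn and LM8 at an early and a late passage. Dunn is a mouse line of low metastatic potential, described in the labels as osteoblastic, and LM8 is a derivative of it that was selected in mice for metastasis. The groups were Dunn_25 (Dunn cells at passage 25), Dunn_86 (Dunn, passage 86), LM8_24 (LM8, passage 24) and LM8_91 (LM8, passage 91). Each had 3 arrays from independent RNA extracts, and the methods do not say whether these came from separate cultures. All cells were untreated, were grown in the same DMEM and Ham F12 medium with fetal calf serum, penicillin and streptomycin, and were thawed from frozen aliquots before use. LM8 is 1 selected derivative of 1 parental line, so the comparison of LM8 with Dunn compares these lines only. No ligand was added and no immune cells were present, so the arrays report transcripts of resting cultures and not the killing of cells.

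Death receptors are members of the tumor necrosis factor receptor family that carry a death domain in their cytoplasmic tail. When Fas ligand binds Fas, or TRAIL binds its receptor, the tail recruits the adaptor FADD, which brings procaspase-8 molecules together so that they cleave and activate each other. The protein cFLIP, encoded by Cflar, resembles caspase-8 without being an active protease and takes its place in the complex. In the lung, Fas ligand is made by the epithelium, and osteosarcoma cells that grow there are known to have little Fas.

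The files held no probe sequences, so promoter windows from RefSeq (GRCm38.p6) are shown in their place. Each runs from 250 bases before to 50 bases after a transcript start. A window was at hand for 7 of the 8 genes, that of Tnfrsf10b being the exception. Shown are the 3 measured genes with a window whose brightest probe passed the test between the lines, and the capitals mark CG dinucleotides, the sites at which mammalian promoters are methylated. The window of Casp8 is at chr1:58802252-58802551 on the plus strand, inside the annotated span of the gene, that of Fadd at chr7:144582392-144582691 on the minus strand and that of Tnfrsf1a at chr6:125349473-125349772 on the plus strand, each written 5′ to 3′ on the strand of its gene.
Casp8: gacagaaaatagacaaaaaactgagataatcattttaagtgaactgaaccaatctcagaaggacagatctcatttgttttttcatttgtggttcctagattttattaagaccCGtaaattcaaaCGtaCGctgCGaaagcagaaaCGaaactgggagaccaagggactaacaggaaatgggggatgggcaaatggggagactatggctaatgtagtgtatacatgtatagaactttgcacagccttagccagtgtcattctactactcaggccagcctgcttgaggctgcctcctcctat
Fadd: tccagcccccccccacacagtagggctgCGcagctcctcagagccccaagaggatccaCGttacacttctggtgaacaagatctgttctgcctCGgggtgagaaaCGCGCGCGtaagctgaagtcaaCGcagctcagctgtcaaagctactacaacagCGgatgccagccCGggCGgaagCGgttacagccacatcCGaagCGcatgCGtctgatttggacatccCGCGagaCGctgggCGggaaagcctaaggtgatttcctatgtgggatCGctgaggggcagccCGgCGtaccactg
Tnfrsf1a: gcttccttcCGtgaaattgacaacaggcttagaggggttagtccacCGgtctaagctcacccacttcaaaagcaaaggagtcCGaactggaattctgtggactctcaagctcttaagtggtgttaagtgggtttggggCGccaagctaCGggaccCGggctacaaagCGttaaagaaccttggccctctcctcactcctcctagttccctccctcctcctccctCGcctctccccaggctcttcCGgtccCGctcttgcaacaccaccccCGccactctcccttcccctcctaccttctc
The window of Casp8 held 5 CG dinucleotides, that of Tnfrsf1a 11 and that of Fadd 22, against a median of 7 over 32851 promoter windows. The 3 promoters shown therefore span both sides of that median. The windows of Fas and Cflar held 14 and 12, and those of the undetected ligands Fasl and Tnfsf10 held 7 and 6. The GC box (GGGCGG on either strand) was found in the windows of Fasl, Fas and Fadd and is present in 35.7% of all windows. The TATA box letters TATAAA, on either strand, were found in the window of Cflar alone among the 7, against 13.6% of all windows. The windows of Fas and Tnfrsf1a each held 1 match to TTCNNNGAA, the palindrome bound by STAT factors, which occurs in 8.3% of windows. A match describes letters only, and neither binding nor methylation was measured.

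Levels are given as the log2 of the processed signal minus the 75th percentile of its array, so that a value of 0 lies at that percentile of brightness. Probes bind with different strength, and no level is therefore compared between genes. The LM8 arrays were brighter, with 75th percentiles from 788 to 1700 signal units against 253 to 841 for Dunn, and 39.0% to 59.6% of probes were well above background on an array. After scaling, the median difference of LM8 from Dunn was -0.80 over all probes and -0.39 over probes that every array measured well above background. Small differences between the lines are read against these shifts. Replicates correlated with r from 0.961 to 0.991, except Dunn_86 replicate 1, which reached 0.919 and 0.923 with the others of its group. Of 4 epithelial markers 2 were well above background on that array, Epcam and Krt18, while Cdh1 and Krt8 were so on no array. Epcam was also well above background on 1 LM8_24 array. Dunn_86 replicate 1 had the largest share of probes well above background as well, 59.6%. Results are given without it where it matters. Of 9 osteoblast markers with a probe, 5 were well above background on all arrays, as the label of the lines says (Runx2, Sp7, Col1a1, Ibsp and Pth1r). Alpl, Col1a2 and Spp1 were so on every array that had a value for them, and Postn was so on no array. Of 12 leukocyte markers 4 were well above background on all arrays (Cd3e, Nkg7, Prf1 and Itgam), and 5 were so on no array, including Cd3g, Cd8a and Gzmb. The log2 of their summed signal ran from 2.73 to 4.03 in Dunn and from 2.48 to 3.03 in LM8. Itgam made up most of that sum, with group means from 2.55 to 3.37, while group means of Cd3e, Nkg7 and Prf1 were -1.36 or lower. Ptprc, which all leukocytes carry, was well above background on 2 arrays, and Lyz2 on 6. Of 4 endothelial markers Kdr was well above background on all 12 arrays, Pecam1 on 7, Tek on 1 and Cdh5 on no array. The part of other cells in the results below was not tested.

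Neither ligand gave a measurable signal in these tumor cells. Fasl, the ligand of Fas (chr1:161780691-161788495, GRCm38.p6), was not well above background on any of the 12 arrays, with processed signals from 2.55 to 22.9 units. Tnfsf10, which encodes TRAIL (chr3:27317077-27339665), was not well above background on any array either, with signals from 2.25 to 10.5 units. The highest of these signals came from Dunn_25 replicate 1 and Dunn_86 replicate 1. No fold change is given for a gene below background in both lines. The adjusted p of 0.0285 (limma) that Tnfsf10 reached between the lines therefore compares background readings, from 2.25 to 10.5 units in Dunn and from 2.87 to 4.14 units in LM8.

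**Figure D1:**
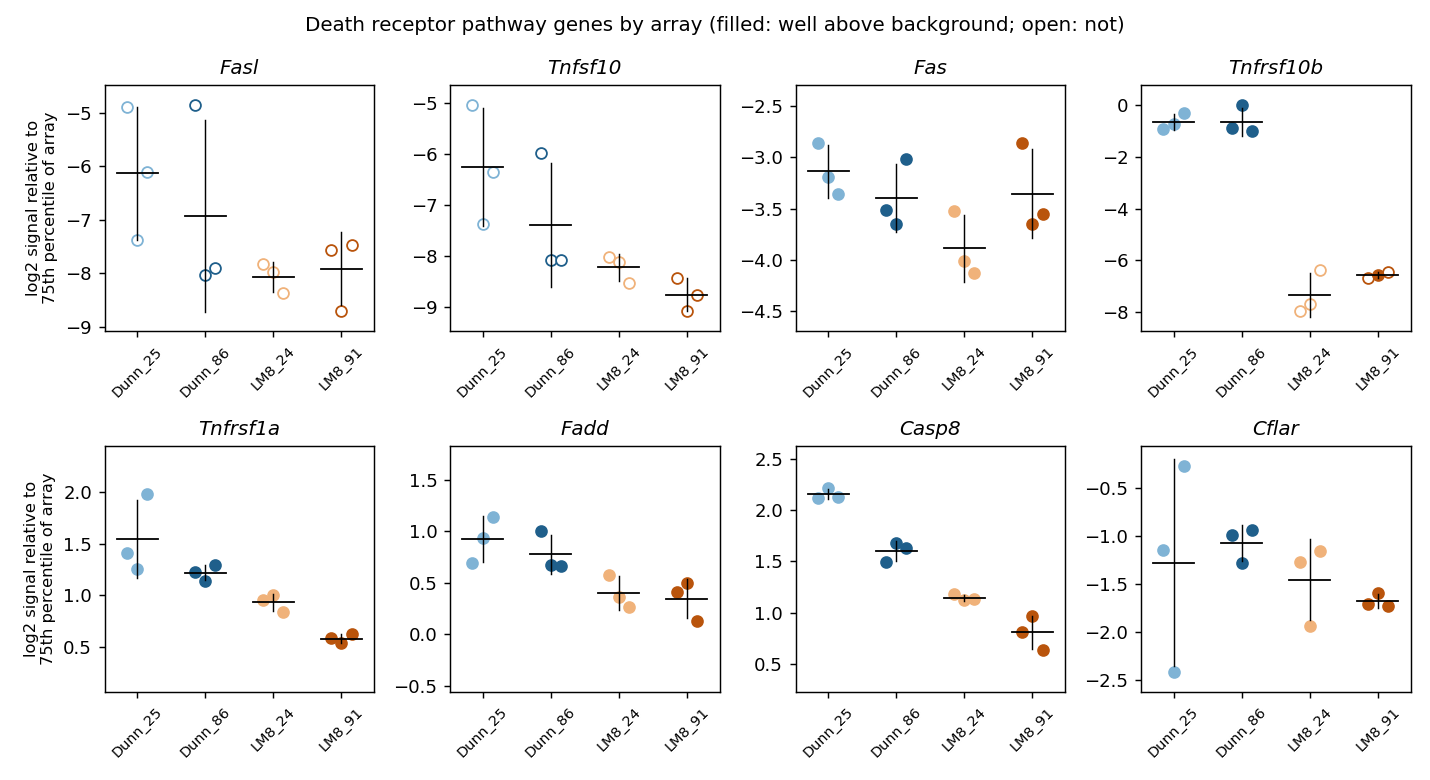
Log2 signal relative to the 75th percentile of the array (vertical axes, ranges differing between panels) for the 8 genes on the 3 arrays of each group. Filled points are well above background and open points are not, horizontal lines are group means and vertical bars 1 SD. Tnfrsf10b lies between -1.01 and -0.01 on all Dunn arrays and at -6.35 or lower on all LM8 arrays, Casp8 steps down from Dunn_25 to LM8_91 without overlap, and both ligands have open points throughout.

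The receptor for TRAIL showed the largest difference among the 8 genes. Tnfrsf10b (chr14:69767472-69784411) encodes the TRAIL receptor of the mouse that carries a death domain. Its level was -0.91, -0.72 and -0.32 on the Dunn_25 arrays and -0.87, -0.01 and -1.01 on the Dunn_86 arrays, with signals from 180 to 834 units. On the LM8_24 arrays it was -7.95, -7.69 and -6.35, with signals of 3.18, 5.57 and 13.3 units, and on the LM8_91 arrays it was -6.69, -6.56 and -6.44, with 10.0, 18.1 and 14.3 units. Every Dunn array was well above background and every LM8 array was below every Dunn array. Of the 6 LM8 arrays only LM8_91 replicate 2 was well above background. In RNA of whole cultures, fewer cells that carry a transcript and less of it per cell cannot be told apart.

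Between the lines, Tnfrsf10b was lower in LM8 by a log2 difference of -6.31 (SE 0.32, 6 against 6 arrays, limma adjusted p = 1.40e-07). As most LM8 arrays gave only a background reading, the fold is stated as a bound, with each LM8 array taken at no less than the lowest signal it measured well above background. By this bound Tnfrsf10b was at least 52.3-fold lower in LM8. The early arrays alone gave -6.68 (SE 0.49, limma adjusted p = 0.00156), at least 48.2-fold, and the late arrays alone gave -5.93 (SE 0.34, limma adjusted p = 0.00177), at least 56.6-fold. Within each of the 3 slides the difference was -7.04, -6.97 and -6.03 at the early passage and -5.82, -6.54 and -5.43 at the late passage. The position of an array on its slide cannot be told apart from its group, as each slide carried the 4 groups in the same order.

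The low signal in LM8 was present at both passages, and no change of Tnfrsf10b with passage passed the test. Late Dunn cells differed from early Dunn cells by 0.02 (SE 0.40, limma adjusted p = 1.00), and late from early LM8 cells by 0.77 (SE 0.42, limma adjusted p = 0.316). Within the 3 slides the LM8 value was 1.26, 1.13 and -0.09. It compares readings at or near background, and with a floor on dim signals it turned to -0.21. Across 11 alternatives the difference between the lines kept its sign and passed the test in all, from -6.68 to -2.65. The smallest came from normexp background correction, which adds an offset to every signal and so shrinks the difference of a gene that is near background in 1 line. Without Dunn_86 replicate 1 the difference was -6.35.

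Fas, the receptor of Fas ligand (chr19:34290647-34327775), was well above background on all 12 arrays. Its level was -2.86, -3.19 and -3.36 in Dunn_25 and -3.51, -3.65 and -3.02 in Dunn_86. It was -3.52, -4.01 and -4.13 in LM8_24 and -2.86, -3.65 and -3.55 in LM8_91. The LM8_24 arrays lay below the Dunn_25 arrays without overlap, and the other groups overlapped. The means ran in the order Dunn_25 (-3.13 ± 0.25, SD, n = 3), LM8_91 (-3.35 ± 0.43), Dunn_86 (-3.39 ± 0.33) and LM8_24 (-3.89 ± 0.32), and the neighbours among the upper 3 differed by less than their spread.

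No comparison of Fas passed the test. Between the lines the difference was -0.35 (SE 0.24, limma adjusted p = 0.231), with -0.75 (SE 0.33, adjusted p = 0.125) at the early and 0.04 (SE 0.33, adjusted p = 0.928) at the late passage. With quantile normalization the pooled value was -0.03, and in the deposited table without scaling it turned to 0.83. Late LM8 cells differed from early ones by 0.53 (SE 0.29, adjusted p = 0.318) and late Dunn cells from early ones by -0.26 (SE 0.34, adjusted p = 0.869). The difference of these passage changes was 0.79 (SE 0.43, limma adjusted p = 1.00). Fas thus remained measurable in LM8, unlike Tnfrsf10b on 5 of the 6 LM8 arrays.

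Tnfrsf1a, the tumor necrosis factor receptor with a death domain (chr6:125349723-125362483), was measured by 2 probes that disagreed. On the brighter, A_55_P2051099, the levels were 1.41, 1.25 and 1.98 in Dunn_25 and 1.23, 1.14 and 1.29 in Dunn_86. They were 0.95, 1.00 and 0.84 in LM8_24 and 0.58, 0.53 and 0.62 in LM8_91. On this probe all LM8 arrays lay below all Dunn arrays, by -0.63 (SE 0.19, limma adjusted p = 0.0288), a value that passed in 7 of the 12 fits that left out an array. On the other probe, A_52_P192426, which carries the same accession, the order was turned, with means of 0.27 ± 0.27, 0.73 ± 0.55, 0.98 ± 0.35 and 1.33 ± 0.37 (SD, n = 3) from Dunn_25 to LM8_91 and a difference of 0.65 (SE 0.26, adjusted p = 0.0563), which passed with the slide as a replicate block (adjusted p = 0.0246). The mean of both probes gave 0.01, so no direction is given for Tnfrsf1a.

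Fadd, the adaptor that links these receptors to caspase-8 (chr7:144578323-144582441), was well above background on all arrays. Its level was 0.69, 0.94 and 1.14 in Dunn_25, 1.00, 0.67 and 0.66 in Dunn_86, 0.58, 0.36 and 0.26 in LM8_24 and 0.41, 0.50 and 0.13 in LM8_91. The Dunn and LM8 arrays did not overlap, while the passages of each line did. The difference between the lines was -0.47 (SE 0.17, limma adjusted p = 0.0397), 1.39-fold, and passed in 3 of the 12 fits that left out an array. Its size is close to the median shift of -0.40 over genes well above background on all arrays, and it turned to 0.71 in the deposited table without scaling. Passaging gave -0.15 in Dunn (SE 0.30, adjusted p = 0.949) and -0.05 in LM8 (SE 0.20, adjusted p = 0.895).

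Casp8, the initiator protease of the pathway (chr1:58795233-58847503), varied most after Tnfrsf10b among the measurable genes, with group means spanning 1.35 on the log2 scale. Its level was 2.12, 2.21 and 2.13 in Dunn_25 and 1.49, 1.68 and 1.63 in Dunn_86. It was 1.18, 1.12 and 1.13 in LM8_24 and 0.81, 0.97 and 0.64 in LM8_91. The 4 groups followed each other without overlap, and late arrays lay below early arrays of the same slide in both lines, on all 3 slides.

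LM8 had less Casp8 than Dunn by -0.90 (SE 0.20, limma adjusted p = 0.00946), 1.87-fold, and the difference passed in all 12 fits that left out an array, from -0.98 to -0.84. It lies beyond the median shift of -0.40 over genes well above background on all arrays, of which 2956 of 8206 also passed as lower. It was -0.84 with quantile normalization and -0.88 with normexp correction, and turned to 0.28 in the deposited table without scaling, where the median of all probes shifted by 0.39. At the early passage the difference was -1.01 (SE 0.28, adjusted p = 0.0739) and at the late passage -0.79 (SE 0.22, adjusted p = 0.140). The changes with passage, -0.56 in Dunn (SE 0.28, adjusted p = 0.766) and -0.34 in LM8 (SE 0.19, adjusted p = 0.319), did not pass. Over genes well above background on all arrays, the median change with passage was -0.31 in Dunn and -0.11 in LM8. Of these genes 75.0% were lower in late Dunn cells and 65.9% in late LM8 cells. The step from Dunn_86 to LM8_24 was not tested, and how many other genes followed the same order of groups was not counted.

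**Figure D2:**
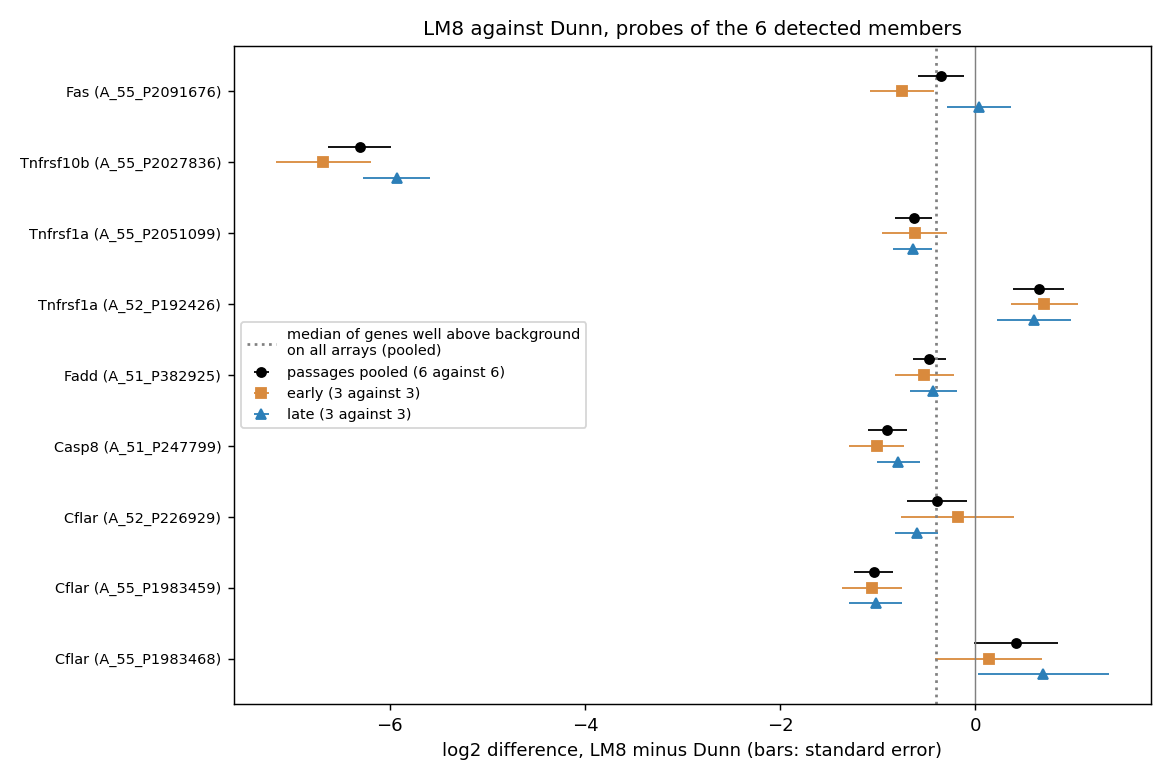
Log2 difference of LM8 from Dunn (horizontal axis, bars SE) for the 9 probes of the 6 genes that were measurable, with passages pooled (circles), at the early passage (squares) and at the late passage (triangles). Tnfrsf10b lies near -6 in all 3 comparisons, while the probes of Tnfrsf1a and those of Cflar fall on both sides of 0.

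Cflar, which encodes the caspase-8 inhibitor cFLIP (chr1:58711311-58758884, the neighbour of Casp8), was read by 3 probes. The brightest, A_52_P226929, gave -1.14, -2.41 and -0.27 in Dunn_25, -0.99, -1.28 and -0.93 in Dunn_86, -1.27, -1.93 and -1.15 in LM8_24 and -1.70, -1.59 and -1.73 in LM8_91. The Dunn_25 arrays enclosed all others, and the difference between the lines was -0.39 (SE 0.31, limma adjusted p = 0.303). The probe A_55_P1983459 carries the same accession, NM_207653, and gave from -2.18 to -1.48 on the Dunn arrays and from -3.04 to -2.43 on the LM8 arrays. These ranges did not overlap, and the difference of -1.04 (SE 0.20, limma adjusted p = 0.00460) passed in all 12 fits that left out an array but turned to 0.15 in the deposited table without scaling.

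The last probe of Cflar, A_55_P1983468, carries another accession, NM_009805, and gave 0.42 (SE 0.43, limma adjusted p = 0.421), with overlapping lines. The probes of Cflar thus differed in direction, and whether they read different transcripts was not tested. No change with passage passed in either line, the adjusted p being 0.326 or higher for all 3 probes.

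Counted together, 5 of the 8 genes passed an adjusted p under 0.05 between the lines, Tnfrsf10b, Casp8, Tnfrsf1a on its brighter probe, Fadd and the undetected Tnfsf10, all lower in LM8. Of all 20142 genes tested, 44.6% passed and 39.1% passed as lower, so most genes that passed anywhere on the array were lower in LM8 as well. The median difference over the 8 genes was -0.77, against -0.68 over all genes, and over the 6 measurable genes it was -0.55, against -0.40 over genes well above background on all arrays. Over 2-fold at an unadjusted p under 0.05, the methods' criterion, were 3 of the 8 genes, against 38.4% of all genes. They were Tnfrsf10b and both ligands, whose background readings support no fold. Of the 6 measurable genes 1 met that criterion, Tnfrsf10b, and of 8206 genes well above background on all arrays 1231 did. These sets are not alike. The measurable genes were well above background on 6 or more arrays, and Tnfrsf10b entered through its Dunn arrays. Genes below background on any LM8 array are missing from the 8206. Neither this share nor the median of -0.40 is therefore a like background for the measurable genes. With the slide as a replicate block 6 of the 8 genes passed. The count of 5 was 3 without Dunn_86 replicate 1 and ranged from 2 to 6 when each array was left out in turn. It was 2 without Dunn_25 replicate 3, without LM8_24 replicate 3 and without LM8_91 replicate 2 or 3, and 3 without LM8_91 replicate 1. At each passage alone, 1 gene passed, Tnfrsf10b, against 4.63% of all genes at the early and 3.85% at the late passage.

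**Figure D3:**
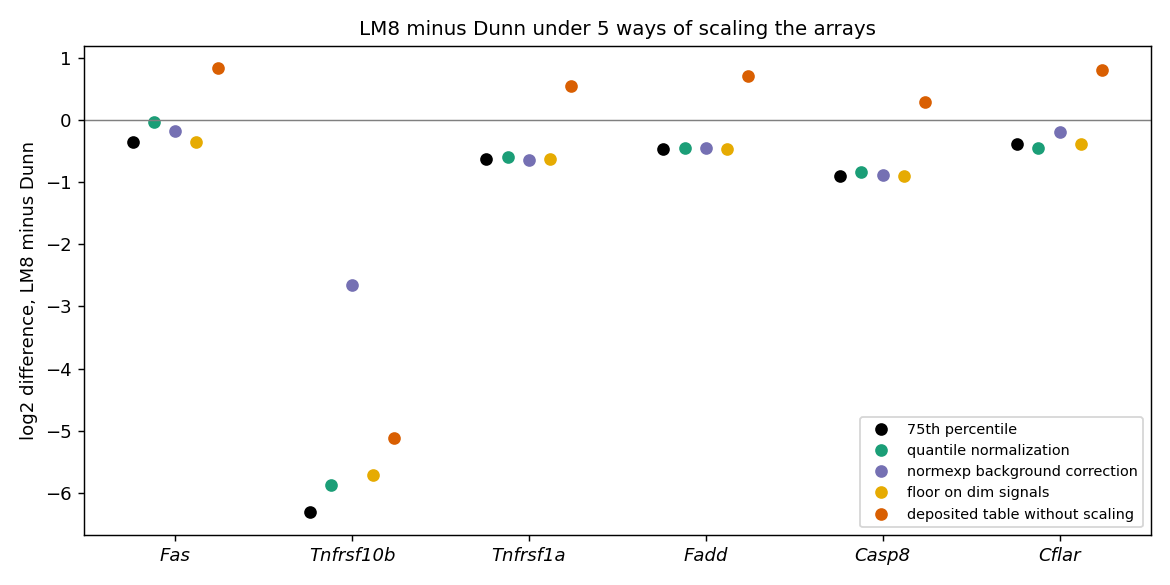
Log2 difference of LM8 from Dunn with passages pooled (vertical axis) for the 6 measurable genes, with arrays scaled in 4 ways and as in the deposited table without scaling. Tnfrsf10b stays between -6.31 and -2.65, and the other 5 genes lie above 0 in the table without scaling, Casp8 at 0.28 and Fas at 0.83.

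Passaging changed none of the 8 genes past the test in either line. In Dunn cells 0 of 8 passed an adjusted p under 0.05 (limma), against 0.00501% of all genes, and 0 at an unadjusted p under 0.05, against 7.12%. Their differences ran from -1.13 to 0.21. In LM8 cells 0 of 8 passed, against 2.79% of all genes, and 0 at an unadjusted p under 0.05, against 15.9%, with differences from -0.53 to 0.77. The methods' t-test gave 0 of 8 in both lines. By the criterion of over 2-fold at an unadjusted p under 0.05 the counts were again 0 and 0, against 4.96% of all genes in Dunn and 7.37% in LM8. The change with passage did not differ between the lines past the test for any of the 8 genes, against 0.616% of all genes, and 0 differed at an unadjusted p under 0.05, against 6.71%. With 3 arrays against 3, a change of the size of that of Casp8 in Dunn was not resolved, and its values without overlap stand beside an adjusted p of 0.766.

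The wider pathway was described with 56 further genes, from other ligands and receptors of the family to proteins that act further downstream. Between the lines 23 of 56 passed, 21 lower and 2 higher in LM8, or 41.1%, close to the 44.6% of all genes. Their median difference was -0.59. By role, 1 of 4 ligands passed, 3 of 7 receptors, 2 of 4 decoy receptors, 12 of 21 adaptors and proteins of the receptor complex, 3 of 12 mitochondrial amplifiers and 2 of 8 executioners and inhibitors. The lower genes included Daxx, a protein that binds the tail of Fas (-0.97, SE 0.16, limma adjusted p = 0.00184). They also included Bax, which opens the mitochondrial membrane (-0.93, SE 0.27, adjusted p = 0.0285), and its opponent Bcl2 (-0.80, SE 0.19, adjusted p = 0.0151). Genes that promote and genes that restrain death were thus both among the lower ones. The median difference over genes well above background on all arrays was -0.40. Without scaling, the mean signals of Daxx, Bax and Bcl2 were higher in LM8 than in Dunn at both passages. For Bax they were 8350 against 6310 units at the early and 14100 against 11800 units at the late passage. The lower level of these genes thus depends on the scaling. These 3 were chosen after their values were seen.

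By the rule for large differences without overlap, 3 genes of the wider list were named between the lines. How many of all genes met this rule was not counted. Over 2-fold at an unadjusted p under 0.05 (limma) were 12 of the 56 genes, against 38.4% of all genes. Edar, the ectodysplasin receptor with a death domain, averaged -2.57 ± 0.10 in Dunn_25, -3.03 ± 0.27 in Dunn_86, -4.77 ± 0.10 in LM8_24 and -6.81 ± 0.65 in LM8_91 (SD, n = 3). It was lower in LM8 by -2.99 (SE 0.47, limma adjusted p = 0.00153), with 5 of 6 LM8 arrays well above background. Tnfrsf23, a decoy receptor of the mouse that binds TRAIL without a death domain, averaged 0.26 ± 0.43, 0.34 ± 0.31, -1.46 ± 0.08 and -0.91 ± 0.20 in the same order. It was lower by -1.49 (SE 0.22, adjusted p = 0.00102). Across 11 alternatives this difference ran from -1.73 to -0.30 and passed in 9. With the scaling used here, a decoy and the death receptor for TRAIL were thus both lower in LM8. Tnfrsf12a, the receptor of TWEAK, which has no death domain, was lower by -1.07 (SE 0.29, adjusted p = 0.0233), a value that turned to 0.11 in the deposited table without scaling. Tnfrsf11b (osteoprotegerin), a secreted decoy that binds TRAIL and RANKL, went the other way. It falls outside that rule, as its lines overlapped, and was chosen after its values were seen. It was not well above background on any Dunn array, was so on all 6 LM8 arrays, and was at least 2.28-fold higher in LM8 (limma adjusted p = 0.0192).

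**Figure D4:**
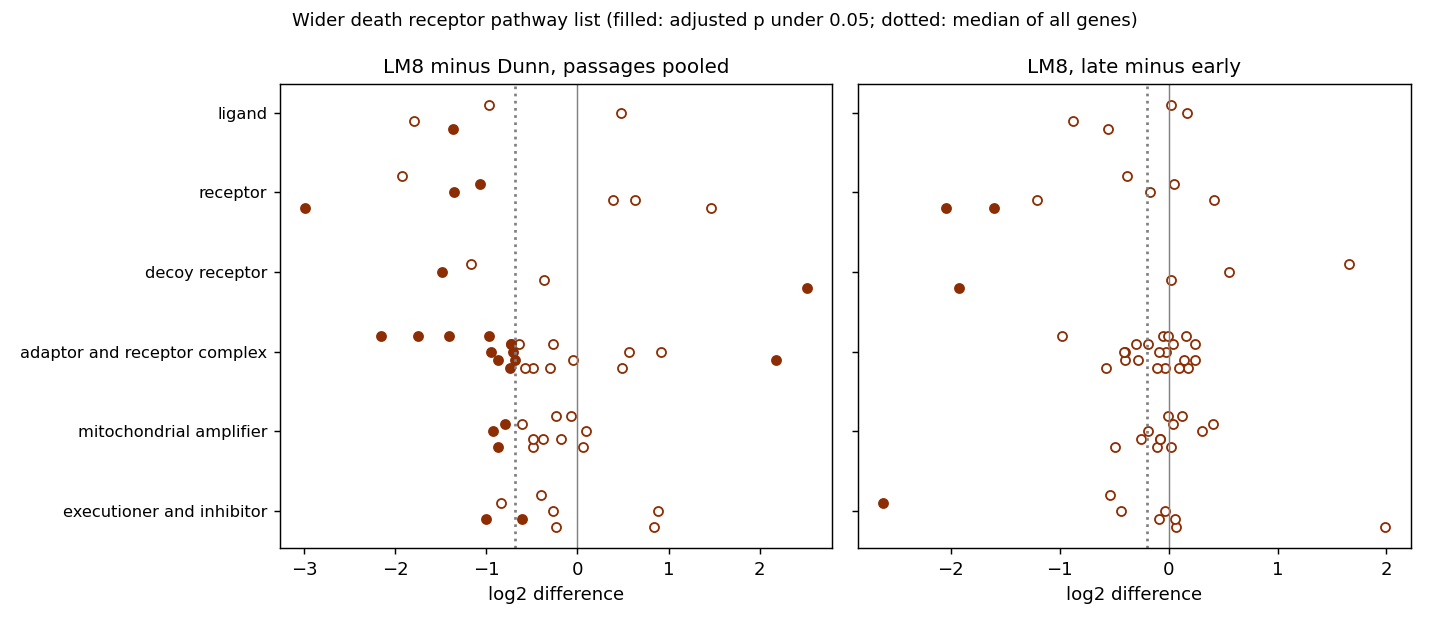
Log2 differences of 56 further genes of the pathway by role (rows), for LM8 minus Dunn with passages pooled and for late minus early LM8 cells. Filled points passed an adjusted p under 0.05 and dotted lines mark the median of all genes; 21 of 23 filled points lie below 0 between the lines, and 4 points are filled for passage in LM8.

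With passage, 0 of 55 genes of the wider list passed in Dunn and 2 did so at an unadjusted p under 0.05, against 7.12% of all genes. In LM8 4 of 56 passed, all lower in late cells, or 7.14%, against 2.79% of all genes. Tnfrsf11b fell from -2.84 ± 0.08 to -4.76 ± 0.43 (SD, n = 3), a difference of -1.92 (SE 0.26, limma adjusted p = 0.0144). Edar fell by 2.04 (SE 0.34, adjusted p = 0.0331), with 2 of 3 LM8_91 arrays well above background, so that the fall is bounded as at least 3.14-fold. With the slide as a replicate block it did not pass (adjusted p = 0.0968). Tnfrsf21, a receptor with a death domain, fell by 1.60 (SE 0.23, adjusted p = 0.0177). In Dunn the same gene averaged -4.35 ± 0.70 at the early and -7.62 ± 1.14 at the late passage (SD, n = 3), a difference of -3.27 (SE 0.70, limma adjusted p = 0.492, unadjusted p = 0.00389). Within the 3 slides that difference was -1.16, -4.38 and -4.28. Of the Dunn arrays 2 of 3 early and 0 of 3 late measured Tnfrsf21 well above background, so no bound on the fold is given. These calls were few when an array was left out, from 0 to 3 of 56, with 0 without LM8_24 replicate 1 and without LM8_91 replicate 2 or 3. With the slide as a replicate block the count was 2, and by the methods' t-test it was 0.

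Genes with the pattern most like that of Tnfrsf10b over the 12 arrays, among 12609 genes well above background in at least 1 group, were Acsbg1 (Pearson r 0.992), Btbd11 (0.989) and Filip1 (0.989). Their group means show the same step, as in Acsbg1, with 0.10 and 0.28 in Dunn_25 and Dunn_86 and -5.91 and -5.46 in LM8_24 and LM8_91. Acsbg1 and Filip1 lie on chromosome 9 and Btbd11 on chromosome 10, while the genes near Tnfrsf10b on chromosome 14 were not examined. For Casp8 the most alike were Pyroxd2 (r 0.979), Ncam1 (0.977) and Fxyd1 (0.974), each highest in Dunn_25 and lowest in LM8_91. These correlations rest on 12 arrays in 4 groups that share their scaling, so they describe a shared order of groups.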

How the data were processed

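Total RNA of 12 samples was labeled with Cy3 and hybridized to Agilent mouse 4x44k v2 arrays. The labels name an RNeasy kit for the extraction and the methods TriReagent. The source label calls the lines human, against the organism label (mouse) and the cell line labels (Dunn and LM8), which were used. For each array the authors deposited the output of Agilent Feature Extraction 10.7.3, in which the processed signal is a background-subtracted spot intensity that was not scaled between arrays. A table of the series, also deposited, held the same intensity (all values within 1%). Its column medians ran from 10.70 to 85.20. Control spots and outlier spots were left out here, spots of a probe were averaged, and log2 signals were expressed relative to their array's 75th percentile. The files give no gene symbols, so 26581 probes were named through their accession from RefSeq (GRCm38.p6), and a gene was given by its brightest probe. Comparisons used limma (version 3.58.1, R 4.3.3) with Benjamini-Hochberg adjustment over all probes, requiring 2 arrays with a value per group. P-values measure the spread between these samples, and the number of arrays limits the precision. The comparison of the lines with passages pooled had no term for passage, so its spread also includes the change with passage. The members and gene lists were chosen with earlier results of these data known. Named were all 8 members, and of the wider list the genes over 2-fold with an adjusted p under 0.05, no overlap and a signal well above background on every array of the higher group, at most 4 each way per comparison. Genes named outside this rule are marked as chosen after their values were seen. For the 2 members with the widest group means, the 3 most correlated genes were named too. Some genes of the wider list and the marker lists are counted but not reported here by name. The steps were tested on simulated data. Replicate numbers mark slides. Deviations of arrays with the same number correlated from -0.231 to 0.683, not over 0.1 in every pair (all 3 pairs of Dunn_25 with Dunn_86 were, at 0.222 to 0.683, and there the block called 0 members and 0 genes of the wider list, as without it), so the slide was not part of the tests reported and a fit with it as a block was an alternative. Other alternatives were quantile normalization, normexp correction (offset 50), a filter on dim probes, a floor on dim signals, values of the deposited table, the mean of a gene's probes, 1 fit over all arrays, the methods' t-test and leaving out each array. The files lack the mean signal planned for normexp, so the median signal was used. The R packages data.table (1.17.8) and jsonlite (2.0.0) read the files, and pandas 2.3.3 and matplotlib 3.10.9 served for promoters and plots.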

Additional observations from a re-analysis of the deposited data

How the results depend on the processing

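The difference of Tnfrsf10b between the lines kept its direction and passed the test under all 11 alternatives and in all 12 fits without an array (from -6.42 to -6.10). Most other changes of direction came from the deposited table without scaling. There LM8 minus Dunn turned to 0.83 for Fas, 0.55 for Tnfrsf1a, 0.71 for Fadd, 0.28 for Casp8, 0.80 for Cflar, 0.15 for its probe A_55_P1983459 and 0.11 for Tnfrsf12a, with 1 member and 13 genes of the wider list called. In the same table late minus early Dunn turned to 0.72 for Fas, 0.65 for Tnfrsf1a, 0.83 for Fadd and 0.42 for Casp8, and late minus early LM8 to 0.03 for Tnfrsf1a, 0.33 for Fadd, 0.05 for Casp8 and 0.16 for Cflar, with 1 gene of the wider list called. The difference of the passage changes turned to -0.50 for Fadd and -0.37 for Casp8. The shift of all probes between the lines was -0.80 with the 75th percentile, -0.14 with quantile normalization, -0.05 with normexp correction and 0.39 without scaling. With the mean of a gene's probes, Tnfrsf1a turned to 0.01 between the lines and 0.06 in Dunn, and Cflar to -0.03 in Dunn, 0.03 in LM8 and 0.06 in the difference of passage changes. Tnfrsf10b, whose change with passage passed no test, turned to -0.03 in Dunn with quantile normalization and to -0.09 with normexp correction, and with a floor on dim signals to -0.21 in LM8 and -0.23 in the difference of passage changes. The late arrays alone gave 0.04 for Fas. Normexp correction called 1 member with passage in LM8 (Tnfrsf1a, -0.44, limma adjusted p = 0.0444) and 1 gene of the wider list in the difference of passage changes. The cause of these changes was not tested.

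A fit over all 12 arrays called 1 gene of the wider list in Dunn and 1 in LM8, and the methods' t-test called 0 in LM8. At the threshold of the methods the t-test gave 3 members and 12 genes of the wider list between the lines, 0 and 1 in Dunn and 0 and 5 in LM8, and after Benjamini-Hochberg adjustment 5 and 22 between the lines and 0 elsewhere. The early arrays alone called 1 member and 3 genes of the wider list between the lines, and the late arrays alone 1 and 1. With the replicate block the count of members between the lines was 6 and that of the wider list 29, the wider list count with passage in LM8 fell to 2, and members called with passage stayed at 0. The second Tnfrsf1a probe passed with the block (0.65, limma adjusted p = 0.0246).

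Without each array in turn, between 2 and 6 members and between 11 and 29 genes of the wider list were called between the lines, and with passage in LM8 between 0 and 3 genes of the wider list. In these fits late minus early Dunn ranged from -0.29 to 0.21 for Tnfrsf10b and from -0.36 to 0.71 for Cflar, and late minus early LM8 from -0.13 to 0.05 for Fadd. The difference of passage changes ranged from -0.24 to 0.12 for Tnfrsf1a, from -0.01 to 0.21 for Fadd and from -0.93 to 0.14 for Cflar. Signal over background limits the ligands, for which no fold is given, and Tnfrsf10b in LM8, for which the fold between the lines is only a bound.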
